A study of Mus musculus with 15 samples.

Results

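Repeat-derived piRNAs of control foetal testes were set against the repeat RNA of control gonocytes, the foetal male germ cells in which piRNAs act. The members were all libraries of Tex15+/- embryos at E16.5 from both assays, 6 of the 15 libraries of a study that asks what TEX15, a germ cell protein, does in piRNA-directed transposon silencing. Both groups were heterozygous for a null Tex15 allele, from a line that descends from 1 founder animal, on a mixed B6CBAF1/Crl; C57BL/6N background. Small RNA was size-selected from whole foetal testes, 6 testes for each of the 3 libraries. Long RNA, depleted of ribosomal RNA, came in 3 libraries from gonocytes that were sorted by a Miwi2 tdTomato reporter allele, so these embryos were Tex15+/-; Miwi2tdTom/+, and the labels do not name the animals behind a library. Tissue, genotype at Miwi2, library chemistry, repeat catalogue and mapping all change together with the kind of RNA, so their parts in a difference cannot be told apart, nor can fewer germ cells be told from less RNA per cell. The p-values measure the spread between these libraries.

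piRNAs are small RNAs that guide PIWI proteins to transposon transcripts. In foetal gonocytes MILI, encoded by Piwil2, slices transposon RNA, and in the ping-pong cycle piRNAs from both strands then give rise to one another with 5′ ends that overlap by 10 nt. MIWI2, encoded by Piwil4, carries piRNAs to the nucleus, where young transposons become DNA-methylated. Primary-type piRNAs mostly begin with U, and the partner made by slicing tends to carry A at the tenth base.

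On the piRNA side, reads of 25 to 30 nt that the deposited tables assign to a repeat were counted, and on the long RNA side the reads placed on a repeat consensus sequence. The names were sorted into 6 groups. L1 elements are retrotransposons without long terminal repeats (LTRs) that encode their own copying machinery. IAP, the other ERVK elements, ERV1 and ERVL are LTR retrotransposons related to retroviruses, and SINEs are short non-coding elements that use the L1 machinery. All shares below are percentages of the repeat reads of a library, not corrected for the length of an element.

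The most abundant piRNA of the 2 matched families with the largest piRNA share in each group is shown first, since these molecules are what the shares count. Capitals mark the first and the tenth base, which bear on ping-pong, and T stands for U as in the deposited tables.
L1Md_T: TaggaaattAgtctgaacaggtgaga
L1Md_F: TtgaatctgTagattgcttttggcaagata
IAPEz-int: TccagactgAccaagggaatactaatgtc
IAPEy-int: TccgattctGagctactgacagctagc
MMERVK10C-int: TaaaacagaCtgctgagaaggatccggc
ETnERV-int: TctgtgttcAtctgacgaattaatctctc
MMERGLN-int: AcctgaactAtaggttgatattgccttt
RLTR4_MM-int: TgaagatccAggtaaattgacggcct
MERVL-int: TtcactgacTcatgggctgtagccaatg
MTA_Mm: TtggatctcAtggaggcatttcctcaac
B2_Mm2: AccatctgcAttgagatctgacgccctc
B1_Mus1: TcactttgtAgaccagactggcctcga

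Of these 12 sequences, 10 begin with T and 8 carry A at the tenth base. The L1Md_T sequence was read 2959, 3796 and 3142 times per 1000000 repeat piRNA reads in piRNA controls 1 to 3, a scale written below as reads per 1000000. It occurs 5892 times without mismatch in the 21 chromosomes of the GRCm38.p6 assembly that were searched, so its reads cannot be given to 1 copy. The IAPEz-int sequence spanned a wider range, with 5484, 2551 and 1651 reads per 1000000, and was highest in control 1. It occurs 872 times in the genome, whereas the IAPEy-int sequence occurs 10 times and reached 887, 567 and 541 reads per 1000000. The B1_Mus1 sequence was the least abundant of the 12, at 23.2, 21.0 and 46.8 reads per 1000000, and was named B1_Mur2 in part of the libraries.

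A partner is the most abundant sequence of the same family whose first 10 bases are complementary to those of a sequence above. Such a pair is the form a ping-pong product takes. The 3 partners with the most reads are shown.
L1Md_T partner: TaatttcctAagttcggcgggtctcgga
IAPEz-int partner: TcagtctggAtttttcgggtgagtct
ETnERV-int partner: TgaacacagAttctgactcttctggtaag

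The L1Md_T partner was present at 230.0, 304 and 279 reads per 1000000. The IAPEz-int partner was far scarcer than its sequence, at 11.6, 17.5 and 21.3 reads per 1000000, and lies antisense on the IAPEz-int copy described below, where the abundant sequence lies sense. For ETnERV-int the order was the other way round, with an antisense abundant sequence at 126, 77.1 and 65.3 reads per 1000000 and a sense partner at 16.4, 10.8 and 11.6. Partners of the other sequences were scarcer or absent. Their means were 9.08 (B1_Mus1), 4.15 (MMERGLN-int), 3.21 (MTA_Mm), 0.822 (MMERVK10C-int), 0.324 (IAPEy-int), 0.171 (B2_Mm2) and 0.105 (RLTR4_MM-int) reads per 1000000. No partner was found for L1Md_F and MERVL-int.

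Depth was 3535450, 23244351 and 5361924 repeat piRNA reads in controls 1 to 3, and 930032, 974608 and 1055940 repeat RNA reads, which were 3.02% to 3.47% of the reads of a gonocyte library that were on or off a consensus. The sorted cells carried their markers: 8 gonocyte genes summed to 3277 to 3392 counts per 1000000 gene reads (CPM). These include Piwil4, the gene of the sorting reporter, whose reads are no separate evidence of identity. Ddx4, Piwil2, Piwil4, Dnmt3l, Mael and Tdrd1 are also in the pathway list at the end. Sertoli cell genes summed to 5.69 to 10.6 CPM, foetal Leydig genes to 17.8 to 61.1 with the highest sum in RNA control 2, interstitial and peritubular genes to 19.6 to 24.6, endothelial genes to 53.4 to 57.2, and blood and macrophage genes to 8.26 to 8.81. Insl3 and Hba-a1 had no reads. Nanos2, a gonocyte gene, was at 0.613 to 1.44 CPM. The testis libraries are small RNA, and their cell make-up was not tested.

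L1 elements held the largest share in both assays, and a larger one in long RNA than in piRNAs. In piRNA controls 1 to 3, L1 made up 43.1%, 46.8% and 46.2% of repeat reads. In gonocyte RNA it made up 66.6%, 66.3% and 64.3%. The libraries did not overlap, and the mean RNA share was 1.45-fold the mean piRNA share (65.7% ± 1.22 against 45.4% ± 1.98, SD, n = 3 each).

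The LTR groups went the other way. Shares of a library sum to a whole, so the smaller L1 share in piRNAs by itself raises the shares of other groups. Shares without L1 were not computed, so the folds below are not separate from the L1 gap. IAP made up 17.8%, 15.2% and 13.4% of piRNA reads and 8.25%, 8.10% and 8.83% of RNA reads, 1.84-fold more in piRNAs. The other ERVK elements were at 13.7% ± 0.0448 of piRNA reads and 5.72% ± 0.187 of RNA reads (SD, n = 3), 2.39-fold more. ERV1 elements showed the widest gap of the LTR groups, with 10.3% ± 0.135 against 3.71% ± 0.0781, or 2.78-fold more. ERVL elements stood at 6.78% ± 0.519 and 3.98% ± 0.221, 1.70-fold more.

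SINEs leaned towards long RNA, at 8.05%, 7.27% and 8.89% of piRNA reads and 9.50%, 9.90% and 10.6% of RNA reads. For all 6 groups the 3 libraries of one assay lay wholly on one side of the other, and the two-sided exact permutation test gave p = 0.1, adjusted p = 0.1, the smallest value that 3 against 3 libraries allow. Repeats outside the 6 groups were at 0.341% of piRNA reads and 2.50% of RNA reads on average. IAP, ERVL and SINE values depended on what was counted. With each distinct piRNA sequence counted once, IAP stood at 10.1% ± 1.04 and its log2 ratio was 0.26 in place of 0.88. The RNA side stayed in reads here and in every ratio over distinct sequences below. Those ratios therefore set numbers of sequences against numbers of reads. Over reads of families named in both catalogues alone, ERVL was at 3.29% in piRNAs and 4.58% in RNA, a log2 ratio of -0.48 in place of 0.77, and SINE had a ratio of -0.95. Over distinct sequences ERVL had a ratio of 1.39, SINE was at 13.9% ± 0.534 and its log2 ratio was 0.48 in place of -0.31, and L1 stood at 35.7% ± 0.952.

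**Figure D1:**
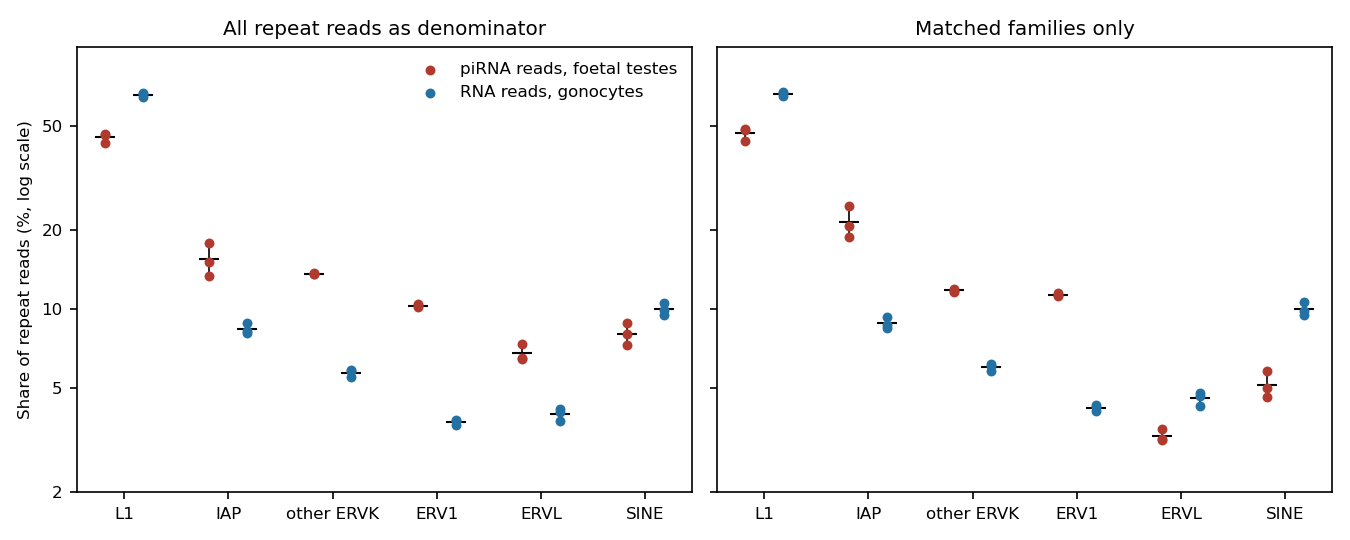
Share of repeat reads (%, log scale) in 6 repeat groups, with a point for each of 3 piRNA and 3 gonocyte RNA libraries and lines for the mean and SD, over all repeat reads and over reads of matched families. L1 lies higher in RNA (65.7% against 45.4%) and ERV1 higher in piRNAs (10.3% against 3.71%), while ERVL changes sides between the panels.

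The name given to a sequence limits what a single family can show. Of the piRNA sequences found in all 3 libraries, 357348 in number, those with the same name throughout held 57.3% to 61.1% of the reads, and those in the same group 96.5% to 96.9%. L1 names were unstable: 41.7% to 42.5% of L1 reads kept their family, against 97.6% to 98.2% that kept the group. The group itself was less stable for ERVL, kept by 86.1% to 89.7% of reads, and SINE, kept by 90.3% to 94.0%. L1Md_Gf kept its name for 4.94% to 6.75% of reads, whereas IAPEz-int kept it for 96.2% to 97.0% and MERVL-int for 93.9% to 95%. The catalogues differ as well. There were 859 names on the piRNA side and 356 on the RNA side, and 277 families match, with 70.9% of piRNA reads and 86.7% of RNA reads. For ERVL there were 216 piRNA names and 14 RNA names, and matched families held 34.7% of its piRNA reads. SINE had 38 and 10 names, with 45.2% of its piRNA reads matched. Names that share a stem were therefore also joined into 21 sets, which sum over names of that stem. Whether sequences moved between sets from library to library was not tested.

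Across the 277 matched families, log2 mean shares in piRNAs and RNA had Pearson's r = 0.75 and Spearman's rho = 0.70. This is a description across families, which share libraries and reads and are not independent. Between libraries of one assay, the lowest Pearson's r was 0.992 for piRNAs and 0.969 for RNA over 253 families. Of the 275 families that could be tested, 142 (51.6%) had a higher share in piRNAs and 59 (21.5%) a lower one, 73.1% in either direction, by edgeR's quasi-likelihood test at an adjusted p under 0.01. The split rests on the scaling. TMM factors centre the families on one another and shift the median log2 ratio by -0.99, and with them 92 were higher and 94 lower. It rests on the filter too, since a family with few RNA reads can pass through its piRNA reads. With at least 10 reads in every library, 96 of 210 families were higher and 58 lower. The median log2 ratio was then 0.47 in place of 0.99.

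**Figure D2:**
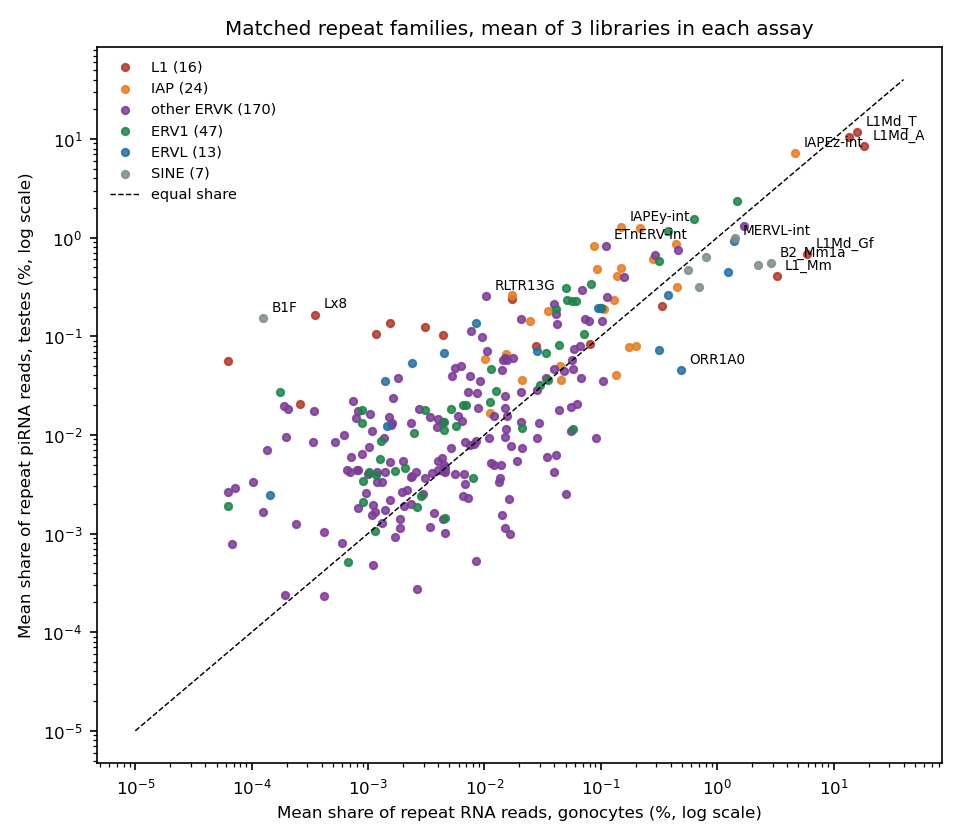
Mean share of repeat piRNA reads (%, log scale) against mean share of repeat RNA reads (%, log scale) for the 277 matched families, coloured by group, with a dashed line at equal shares. IAPEy-int and Lx8 lie above the line (1.28% against 0.150% for IAPEy-int), and L1Md_Gf and ORR1A0 below it (0.687% against 5.95% for L1Md_Gf).

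Of the joined sets, 12 of 21 (57.1%) were higher in piRNAs and 6 (28.6%) lower by the same test. The L1Md elements, joined over the T, A, F and Gf types, fell on the RNA side. They made up 29.5%, 32.7% and 32.2% of piRNA reads and 54.9%, 54.2% and 52.5% of RNA reads, with a log2 ratio of -0.77 ± 0.08 (SE, adjusted p = 8.56e-08). L1 V elements were slightly lower in piRNAs, at 2.01% against 2.48% (log2 ratio -0.31 ± 0.07, adjusted p = 0.000688). The L1 Mus and Lx sets went the opposite way. L1 Mus stood at 5.87% of piRNA reads and 1.94% of RNA reads, and Lx at 3.67% and 2.17%, with log2 ratios of 1.60 ± 0.07 and 0.75 ± 0.08.

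Within the L1Md set, all 4 matched names were lower in piRNAs, where 21.5% of all families were, and all 4 with TMM factors, where 94 of 275 families were. L1Md_A, whose promoter type is among those active in mouse germ cells, was at 8.05%, 8.81% and 8.75% of piRNA reads and at 18.6%, 18.3% and 17.7% of RNA reads (log2 ratio -1.09 ± 0.06, adjusted p = 2.22e-08). L1Md_T differed less, with 11.1%, 12.4% and 11.9% against 16.6%, 16% and 15.5% (-0.44 ± 0.06), as did L1Md_F at 10.4% ± 0.581 against 13.7% ± 0.247. The groups of libraries did not overlap for any of these names, as was so for 80.7% of the 275 families. Reads that kept the name in all piRNA libraries were 56.3% to 57.7% for L1Md_A and 50.7% to 52.7% for L1Md_T. L1Md_F joins the names L1Md_F, L1Md_F2 and L1Md_F3. Of its reads, 19.6% to 23.0% kept the name and 29.1% to 32.5% the family. These single ratios therefore rest on unstable names. L1Md_Gf and L1_Mm had log2 ratios of -3.12 and -2.98, with names kept for 4.94% to 6.75% and 4.19% to 4.75% of reads. Of the 10 matched Lx names, 9 were higher in piRNAs, where 51.6% of all families were. With TMM factors 8 were higher and 1 lower. Together these names held 1.11% of piRNA reads and 0.137% of RNA reads. Names so scarce in RNA can pass the filter through the piRNA libraries, so their count is no evidence of a difference. Lx8 had 10 RNA reads over all 3 libraries, so its share ratio of 490 has a counting interval of 266 to 1021, and the RNA catalogue holds consensus names for Lx, such as L1Lx_I, that the piRNA catalogue lacks.

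IAP elements, LTR retrotransposons that still move in mice, divided by subtype. IAPEz-int, the coding part of the main IAP type, was at 8.81%, 6.83% and 5.79% of piRNA reads and 4.67%, 4.38% and 5.0% of RNA reads. It was highest in piRNA control 1 and the assays did not overlap (log2 ratio 0.61 ± 0.13, adjusted p = 0.00108), yet the ratio was -0.37 with TMM factors and -0.42 with each distinct sequence counted once. Without gonocyte control 1 the adjusted p was 0.0140. IAPEy-int stood farther apart. It was at 1.42%, 1.27% and 1.17% of piRNA reads and 0.132%, 0.169% and 0.148% of RNA reads, a log2 ratio of 3.10 ± 0.12 that was 2.12 with TMM factors.

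IAPEY3-int (1.26% against 0.219%) and IAPLTR3-int (0.817% against 0.0866%) showed the same side, with log2 ratios of 2.52 and 3.24. Joined, the IAPEY names had a log2 ratio of 1.98 ± 0.08 and the IAPLTR3 names one of 3.38 ± 0.11. The joined IAPLTR4 names, at 0.144% against 0.189%, were lower in piRNAs (-0.39 ± 0.12, adjusted p = 0.00490), a call that held without piRNA control 1 and was lost when any 1 of the other 5 libraries was left out. Over distinct sequences the ratio turned to 0.31 and passed the test (adjusted p = 0.00159). Among all 24 matched IAP names, 17 (70.8%, against 51.6% of all families) were higher and 4 (16.7%, against 21.5%) lower in piRNAs. With TMM factors 10 were higher and 6 lower, where all families gave 92 and 94 of 275. The lower names were IAP1-MM_I-int (-0.53), IAPEY5_I-int (-1.34), IAPLTR4_I (-1.17) and IAPA_MM-int (-1.72). The LTRs IAPLTR1_Mm (1.11), IAPLTR1a_Mm (1.56), IAPLTR2a2_Mm (1.74), IAPLTR2b (2.35), IAPEY2_LTR (2.37), IAPEY_LTR (2.54) and IAPLTR3 (3.92) were higher. IAPLTR2_Mm (0.97), IAPEY4_I-int (0.86) and IAP-d-int (0.84) were higher too, but turned to -0.03, -0.12 and -0.15 with TMM factors.

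Of the 3 joined sets of other ERVK elements, 2 were higher and 1 lower in piRNAs, where 57.1% and 28.6% of all sets were. RLTR10 with MMERVK10C, a coding ERVK family, made up 5.77% of piRNA reads and 2.28% of RNA reads (log2 ratio 1.34 ± 0.08). MMERVK10C-int on its own went slightly the other way, at 1.34%, 1.40% and 1.21% against 1.58%, 1.65% and 1.83% (-0.36 ± 0.09, adjusted p = 0.00286), a call that was lost without gonocyte control 2 (adjusted p = 0.0103) or 3 (0.0212). The joined set holds 11 piRNA names and 8 RNA names. Its RLTR10-int and RLTR10C names, 1.78% and 1.07% of piRNA reads, are used in the piRNA tables only and raise the joined piRNA share. The ETnERV and MMETn names, joined, were at 1.94% and 0.803% (1.28 ± 0.08).

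ETnERV-int, the internal part whose sequences are shown above, was at 0.909%, 0.846% and 0.732% of piRNA reads and at 0.108%, 0.111% and 0.111% of RNA reads. That is a log2 ratio of 2.91 ± 0.11, against 0.67 for MMETn-int, which turned to -0.31 with TMM factors. RLTR13 elements were lower in piRNAs as a set (0.534% against 0.750%, -0.49 ± 0.09, a call lost over distinct sequences) although RLTR13G was among the names with the highest ratios (4.62) and RLTR13B1 among those with the lowest (-1.55). RLTR10 alone had a ratio of 1.18. Over 168 tested other ERVK names, 76 (45.2%) were higher and 36 (21.4%) lower, near or below the 51.6% and 21.5% of all families. With TMM factors 50 were higher and 62 lower, where all families gave 92 and 94 of 275.

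ERV1 elements, relatives of murine leukaemia viruses, were on the piRNA side in 31 of 47 tested names (66.0%, against 51.6% of all families) and on the RNA side in 4 (8.51%, against 21.5%). With TMM factors 17 were higher and 8 lower, beside the 92 and 94 of 275 over all families. The internal part RLTR4_MM-int was at 1.65%, 1.62% and 1.40% of piRNA reads and 0.653%, 0.603% and 0.645% of RNA reads (log2 ratio 1.30 ± 0.09). RLTR6-int stood at 1.16% ± 0.0520 and 0.378% ± 0.00761 (1.62 ± 0.08). MMERGLN-int, at 2.33% ± 0.326 and 1.47% ± 0.0745, had a ratio of 0.66 that turned to -0.32 with TMM factors. Joined with their LTRs, RLTR4, RLTR6 and MMERGLN with RLTR1 had log2 ratios of 1.44, 1.54 and 0.97.

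ERVL elements divided too, with 8 of 13 tested names higher in piRNAs (61.5%, against 51.6% of all families) and 5 lower (38.5%, against 21.5%). With TMM factors 6 were higher and 5 lower, where all families gave 92 and 94 of 275. MERVL-int, the internal part of an element known for expression in early embryos, was at 0.901%, 0.941% and 0.931% of piRNA reads and 1.31%, 1.49% and 1.41% of RNA reads. The assays did not overlap (log2 ratio -0.60 ± 0.08), and joined with its LTR MT2_Mm the ratio was -0.49 ± 0.08. The non-coding MaLR members depended on joining. MTA_Mm alone had a ratio of -1.49, MTB_Mm of -2.12 and ORR1A0 of -3.43. Joined with names that the piRNA tables alone hold, MTA was at 1.1% against 1.24% (adjusted p = 0.0656, and 0.00234 without piRNA control 3), MTB at 0.325% against 0.319% (adjusted p = 0.818, but a passing log2 ratio of 0.81 over distinct sequences), and ORR1A was higher in piRNAs at 0.944% against 0.486% (log2 ratio 0.96 ± 0.10). RMER15 was higher joined (4.23 ± 0.23) and alone (3.99).

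Of the 7 tested SINE names, 1 was higher and 4 were lower in piRNAs (14.3% and 57.1%, against 51.6% and 21.5% of all families), and 1 and 6 with TMM factors. B2 and B1 parted. B2, which is transcribed by RNA polymerase III, made up 2.02%, 1.90% and 2.27% of piRNA reads and 7.18%, 7.44% and 7.91% of RNA reads when joined (log2 ratio -1.86 ± 0.08, adjusted p = 2.58e-12). B2_Mm1a (-2.39), B2_Mm1t (-2.09) and B2_Mm2 (-0.55) all had lower shares in piRNA reads, but B2_Mm2 turned to 0.22 over distinct sequences. These names were unstable too. The name was kept for 42.2% to 51.7% of B2_Mm1a reads and 62.8% to 67.5% of B2_Mm2 reads. For B2_Mm1a, 76.6% to 91.5% of reads kept the group. B1, joined, was at 2.46% ± 0.303 and 2.34% ± 0.169, and its libraries overlapped (log2 ratio 0.07 ± 0.09, adjusted p = 0.456). Over distinct sequences the joined B1 ratio was 0.87 and passed the test. B1_Mus1 did not pass the test (-0.33, adjusted p = 0.0121) with all libraries and passed it without piRNA control 3 (-0.44, adjusted p = 0.000202). B1F, the 1 SINE name that was called higher, had 4 RNA reads in all and passed the filter through its piRNA reads. Its share ratio was 1122, with a counting interval of 438 to 4117.

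**Figure D3:**
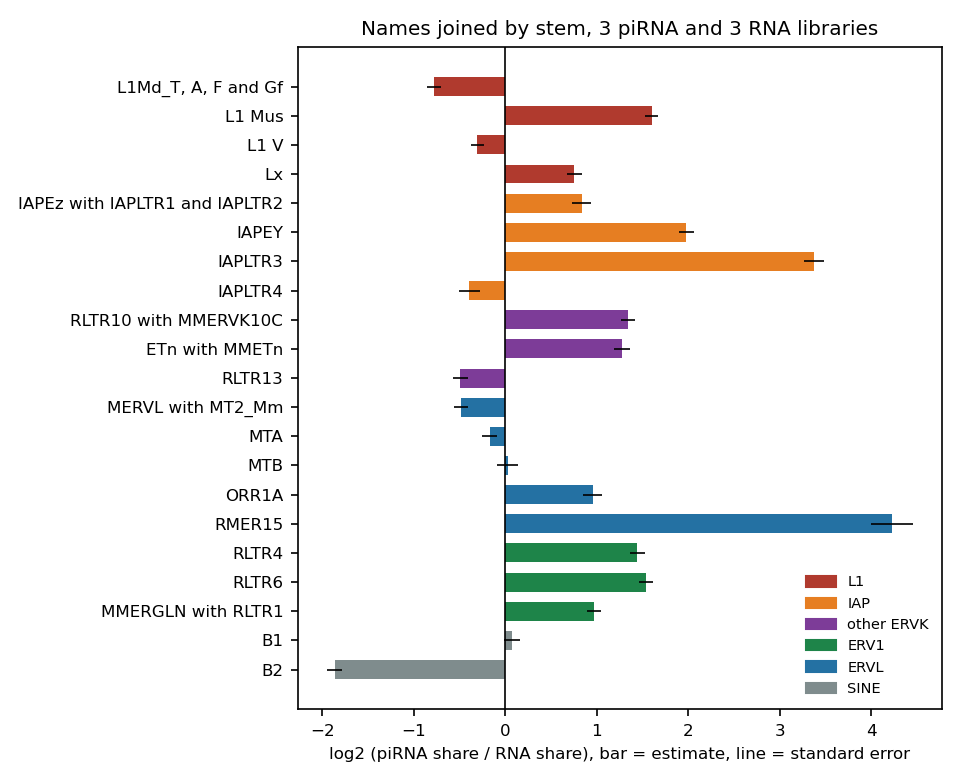
log2 ratio of piRNA share to RNA share for 21 sets of names joined by stem, with the estimate as a bar, its standard error as a line and the group as colour. L1Md (-0.77) and B2 (-1.86) point to RNA, IAPLTR3 (3.38) and RMER15 (4.23) to piRNAs, and MTB (0.03) and B1 (0.07) did not pass the test in read counts, but had ratios of 0.81 and 0.87 over distinct sequences.

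The LTR and internal parts of an element were also set against each other in both assays. For 8 of 11 elements (72.7%), the share of LTR reads among LTR and internal reads did not overlap between assays. The shares of 80.7% of the 275 tested families did not overlap either, so this count does not set the elements apart. RLTR4 had 16.4% ± 0.263 of its piRNA reads on the LTR and 7.33% ± 0.474 of its RNA reads. IAPEz had 12.6% ± 1.37 and 8.28% ± 0.385, but 13.2% ± 0.487 in RNA, overlapping piRNAs, once RLTR1IAP_MM, an IAP LTR name of the RNA catalogue alone, was added. IAPEY (9.97% against 14.1%, or 15.4% with the RNA-only name LTRIAPEY) and RLTR6 (6.61% against 10.3%) went the other way, and MERVL with MT2_Mm overlapped at 22.1% and 21.3%.

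All 6 groups of piRNAs began mostly with U, and L1 piRNAs carried A at the tenth base most often. The share with U first ranged from 69.4% ± 0.544 in ERV1 to 75.3% ± 1.44 in ERVL (SD, n = 3). The share with A at the tenth base was 48.7% ± 1.53 in L1, 42.6% ± 0.386 in ERV1, 41.7% ± 0.891 in IAP, 38.7% ± 1.1 in other ERVK, 38.5% ± 0.741 in ERVL and 35.0% ± 1.46 in SINE piRNAs. ERV1 and IAP, and likewise other ERVK and ERVL, differed by no more than their combined SDs. Within each library, however, ERV1 stood above IAP (42.2%, 42.8% and 42.8% against 41.5%, 40.9% and 42.6%). The order of other ERVK and ERVL changed between libraries. Counted once per distinct sequence, L1 stood at 38.4% and IAP at 38.3%.

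Complementary 5′ ends were counted as products of read numbers, for reads whose first 10 bases were the reverse complement of 10 bases in other reads of the group, at overlaps of 10 to 20 nt. At 10 nt lay 74.5% ± 2.21 of such pairs for L1. The other groups had 29.9% ± 1.07 (ERVL) to 38.2% ± 1.16 (other ERVK) there, and in each of the 6 groups this was the overlap with the largest product. Counted as the share of reads with any complementary partner, the 10 nt overlap stood out less in L1 and not in SINE. On average that share was 75% at 10 nt and at most 56.8% at 11 to 20 nt in IAP, 84.3% and at most 79.5% in L1, and 54.7% and up to 55.6% in SINE. Any match of 10 bases counts as a partner, and the share was larger in deeper libraries. At 10 nt it was 78.9%, 90.3% and 83.6% for L1 and 47.5%, 61.5% and 55.0% for SINE in controls 1 to 3. How many partners match by chance was not tested. Of the pair products, IAP had a further 17.6% ± 0.711 at 17 nt and SINE 19.1% ± 0.712 at 16 nt. Pair products weight abundant sequences, and the 100 most abundant sequences held 14.3% ± 0.897 of L1 and 17.4% ± 3.26 of IAP reads, against 5.91% ± 0.974 of ERV1 reads. When each library was thinned to 1000000 repeat reads, a distinct sequence was read 2.60 ± 0.292 times in IAP, 2.40 ± 0.0468 in L1 and 1.26 ± 0.00886 in SINE.

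**Figure D4:**
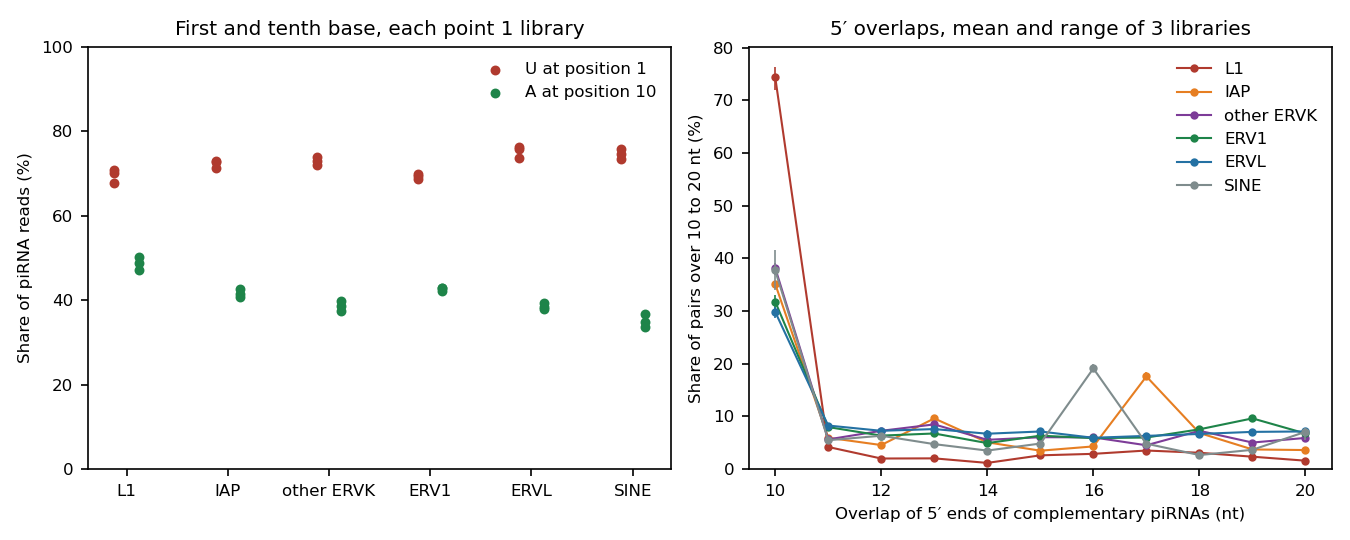
Left, share of piRNA reads (%) with U at position 1 and A at position 10 in each group, a point for each of 3 libraries; right, share of complementary pairs (%) at 5′ overlaps of 10 to 20 nt, as the mean and range of 3 libraries. L1 piRNAs stand highest at the tenth base (48.7%) and, in these products of read numbers, at the 10 nt overlap (74.5%).

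To read strands, the piRNAs of a family were placed with up to 3 mismatches on 1 genomic copy of it, oriented by its longest open reading frame. Antisense reads predominated for L1Md_T on a copy at chrX:117087713-117094234 of GRCm38.p6, with 70.5%, 70.3% and 70.4% in the 3 libraries. L1Md_F2 stood at 77.6% ± 0.794. L1Md_A was near balance on chr2:80810109-80816632, with 47.8%, 52.3% and 59.3%, and spread more between libraries. These copies took 46.7% (L1Md_T), 72.1% (L1Md_F2) and 69.9% (L1Md_A) of their family's reads. Counted once per distinct sequence, the mean antisense shares were 63.2%, 68.7% and 56.4% in this order. The L1Md_T sequence shown above and its partner were not placed on the L1Md_T copy.

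The IAP subtypes lay on opposite sides of balance. On a copy at chr5:104362758-104369242, 94.9%, 94.4% and 93.8% of the IAPEy-int reads placed there were antisense, whereas on a copy at chr5:16285259-16291651 the IAPEz-int reads were 37.6%, 39.9% and 44.0% antisense, without overlap. These copies took 60.3% and 84.9% of their family's reads. Counted once per distinct sequence, the mean antisense share was 84.8% for IAPEy-int and 46.5% for IAPEz-int, so IAPEz-int was then nearer to balance. MERVL-int was mostly sense, with 34.6% ± 0.920 antisense, and MMERVK10C-int had 39.5% ± 0.0852 on a copy that took 48.2% of its reads. The IAPEy-int and MMERVK10C-int sequences shown above were not placed on the copies of their families. ETnERV-int (52.6%), RLTR6-int (53.4%), MMERGLN-int (44.0%) and RLTR4_MM-int (43.5%) lay nearer to balance.

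The tenth base differed between strands in several families. In IAPEz-int, A at the tenth base was found in 34.8% of sense and 74.7% of antisense reads, while U came first in 78.8% and 52.1%. In IAPEy-int this was turned around, with A at the tenth base in 70.1% of sense and 33.2% of antisense reads. L1Md_A had the widest gap among these copies, at 16.3% of sense and 78.5% of antisense reads. For L1Md_F2 the strands were close, at 48.3% and 54.1%.

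**Figure D5:**
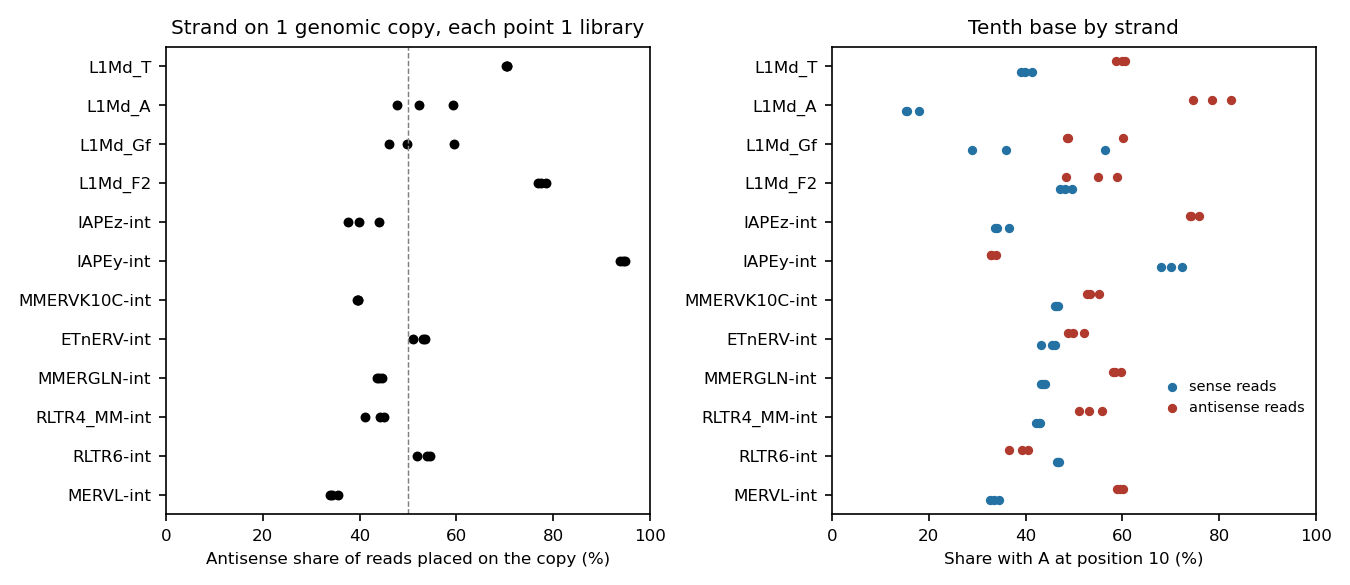
Left, antisense share (%) of piRNA reads placed on 1 genomic copy of 12 families, a point for each of 3 libraries, with a dashed line at equal strands; right, share (%) of sense and antisense reads with A at position 10. IAPEy-int is the most antisense (94.4%), MERVL-int the least (34.6%), and IAPEz-int and IAPEy-int have A at the tenth base on opposite strands.

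The gonocyte libraries expressed the genes that make and use these piRNAs. All 22 genes of the pathway list had reads in each library, with a sum of 8249 to 8506 CPM. Piwil2 was at 734, 706 and 720.0 CPM and Piwil4 at 195, 183 and 175 CPM. Tdrd9, a helicase partner of MIWI2, was at 675 to 839 CPM, and Mov10l1, the helicase that starts piRNA processing, at 511 to 553. Tex15, of which these cells carry 1 null allele, was at 1502 to 1699 CPM. Among the genes of nuclear silencing, Dnmt3l, a cofactor of de novo DNA methylation, was at 241 to 278 CPM and Spocd1, which acts with MIWI2, at 293 to 394. Pld6, the nuclease that forms piRNA 5′ ends, was at 11.6 to 16.9 CPM. CPM is not corrected for gene length, so these levels are compared between libraries and not between genes.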

How the data were processed

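Small RNA was sequenced from whole E16.5 testes and long RNA from sorted E16.5 gonocytes. The submitters' processing notes name cutadapt 1.8.1, Bowtie 1.2.1.1, Bowtie2 2.3.4.3, HISAT2, HTSeq 0.11.1 and DESeq2 1.26.0, with the build GRCm38/mm10. The counts of small RNA sequences, of reads per repeat consensus and of reads per gene are those the authors deposited, unnormalised. In the gene tables, 64.3% to 65.2% of reads were in lines that name no gene and were left out of CPM.

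Shares were computed over repeat reads of 25 to 30 nt or over consensus reads. Matched families were tested with edgeR 4.0.16 (quasi-likelihood, R 4.3.3; library size = all repeat reads, no TMM factors, filterByExpr, Benjamini-Hochberg, adjusted p under 0.01), DESeq2 1.42.0 being an alternative. Group shares were compared with a two-sided exact permutation test. On simulated data over 275 families, the test recovered 100% of changes of 1 log2 unit at a replicate CV of 0.1 and 73.3% at 0.2. False calls were 2 at a CV of 0.1 and 0 at 0.2. The changed families were drawn from those with the largest shares, and both assays had the same CV. Recovery for families scarce in RNA alone was therefore not tested. Other steps used Python 3.11.15, numpy 2.4.6, pandas 2.3.3, scipy 1.17.1, matplotlib 3.10.9 and bwa 0.7.19-r1273. A copy for strands was sought on 6 chromosomes in windows of 6500 bp, with an open reading frame of at least 300 codons that was at least 2 times that of the other strand. For RLTR10-int no strand could be set.

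Families named are the 3 with the largest share in each group and assay, the 8 highest and 8 lowest ratios among called families with a share of at least 0.1%, and all L1Md and IAP families with such a share. Members and lists were chosen with earlier results of these data known. Joined names, strands, name stability, IAP LTR names of the RNA catalogue alone, IAPEZI counted alone and L1Md names counted as 1 were added after seeing the data. Replicate libraries differed beyond sampling noise (chi-square per degree of freedom 147 to 250 for piRNAs, 7.50 to 11.9 for RNA). Counting intervals are 95% and cover counting error only.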

Additional observations from a re-analysis of the deposited data

How the results depend on the processing

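The group ratios kept their direction when 1 library was left out, with log2 ratios of -0.56 to -0.50 for L1, 0.77 to 0.98 for IAP, 1.23 to 1.27 for other ERVK, 1.46 to 1.49 for ERV1, 0.70 to 0.80 for ERVL and -0.38 to -0.24 for SINE. ERVL turned to -0.48 over matched families. SINE turned to 0.48 over distinct sequences and was -0.19, with overlapping libraries, at 24 to 32 nt. The counts of families without 1 library were 133 to 144 higher and 49 to 59 lower, against 92 and 94 with TMM factors, 108 and 88 with DESeq2, and 191 and 38 over distinct sequences. With at least 10 reads required in every library, they were 96 and 58 of 210 families. Same-numbered libraries did not deviate together (correlations of -0.025, -0.024 and 0.007 over 210 families). The labels do not say whether they share litters, and correlations between such unlike assays cannot decide it. With the replicate block the group ratios were -0.54, 0.87, 1.26, 1.47, 0.77 and -0.31 in the order above and 127 families were higher and 51 lower.

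Ratios that turned were MMERGLN-int (-0.32 with TMM, -0.10 with DESeq2), IAPEz-int (-0.42 over distinct sequences, -0.37 with TMM, -0.15 with DESeq2), MMETn-int (-0.31 and -0.0848 with TMM and DESeq2), and, with TMM, IAPLTR2_Mm (-0.0300), IAPEY4_I-int (-0.12) and IAP-d-int (-0.15). Over distinct sequences IAP1-MM_I-int turned to 0.0594, B2_Mm2 to 0.22, joined IAPEz to -0.0461 and joined IAPLTR4 to 0.31. With IAP LTR names of the RNA catalogue alone added, joined IAPEz was at 0.69 and joined IAPEY at 1.98. Over distinct sequences, joined RLTR13 no longer passed the test (-0.13, edgeR adjusted p = 0.131), while joined MTB (0.81) and joined B1 (0.87) did. In thinned libraries a distinct sequence was read 2.60 times in IAP and 2.40 in L1, but 1.37 in ERVL and 1.26 in SINE. Counting each once thus lowered the IAP and L1 shares and raised the ERVL and SINE shares. With RNA left in reads, these results set sequence numbers against read numbers and are not tests of a read share. Reads per sequence of single sets were not tested. U came first in 66.7% (L1), 62.3% (IAP), 68.6% (other ERVK) and 64.8% (ERV1) of distinct sequences, in 73.4% (IAP) and 76.7% (SINE) of reads at 26 to 29 nt, and in 70.1% (SINE) at 24 to 32 nt. A at the tenth base was in 38.4% (L1), 38.3% (IAP), 36.4% (other ERVK), 38.4% (ERV1), 34.1% (ERVL) and 33.3% (SINE) of distinct sequences, in 50.3% (L1), 43.2% (ERV1), 39.6% (ERVL) and 36.6% (SINE) of reads at 26 to 29 nt, and in 32.8% (SINE) at 24 to 32 nt. Without 1 library, A at the tenth base was 48.0% to 49.5% (L1), 41.2% to 42.1% (IAP), 38.1% to 39.2% (other ERVK), 42.5% to 42.8% (ERV1), 38.1% to 38.8% (ERVL) and 34.3% to 35.7% (SINE), and U first 69.0% to 70.4%, 71.9% to 72.9%, 72.5% to 73.4%, 69.2% to 69.7%, 74.7% to 76.1% and 74.0% to 75.3%. Pearson's r between the assays was 0.742 to 0.768 without 1 library. Splitting reads over several names was not run, since every sequence carried 1 name.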
